A study of Mus musculus with 6 samples.

Results

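Aminoacyl-tRNA synthetases are the enzymes that join each amino acid to its transfer RNA, the step that fixes the meaning of the genetic code. The genes described here were the 36 synthetase genes on a list of symbols, 20 for enzymes of the cytosol and 16 for enzymes of mitochondria, taken by symbol from the 24054 genes of a TPM table. TPM is a level of transcripts scaled to transcript length and to a fixed total per library. A symbol ending in 2 was taken as mitochondrial. All 36 symbols were found, and all 36 passed the filter of at least 1 TPM in at least 3 libraries, as 12223 genes did in all.

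The poly-A RNA libraries, stranded and paired-end with reads of 75 bases, came from c-Kit+ splenocytes of 6 mice, enriched with magnetic beads against CD117 (c-Kit), a receptor of blood stem and progenitor cells. All 6 mice were Flt3ITD/ITD, so both alleles of the receptor kinase gene Flt3 carried an internal tandem duplication. The 3 AML mice (acute myeloid leukaemia) were Dnmt3afl/- with MxCre, a recombinase driven by the Mx promoter, which is inducible and acts in the blood system among other tissues. The 3 MPN mice (myeloproliferative neoplasm) were Dnmt3afl/fl and their labels name no Cre; ages, and whether the floxed allele had been recombined, are not given in the sources used here. Genotype, Cre and disease therefore cannot be told apart. Each library is named for a separate mouse.

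Each synthetase belongs to class I or class II, which have unrelated catalytic folds. In animal cells 8 cytosolic synthetase genes encode enzymes held together with the scaffold proteins of the Aimp family in a multisynthetase complex, and the other cytosolic enzymes act outside it. Mitochondria translate their own few mRNAs with a separate set of synthetases that are encoded in the nucleus and imported, except that Kars and Gars each give rise to both a cytosolic and a mitochondrial enzyme. Qars has no mitochondrial counterpart, because glutamine is attached there in an indirect way. Several cytosolic synthetase genes are known targets of ATF4, a transcription factor made when amino acids are scarce, which binds amino acid response elements.

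Promoters were searched for that element and for a pair of other motifs. RefSeq windows of 300 bases on GRCm38.p6, from 250 bases before to 50 after a transcription start, were matched to 27 of the 36 genes, 13 cytosolic and 14 mitochondrial. Cars, Hars, Lars, Nars, Rars, Vars, Wars, Hars2 and Pars2 had no window. The element was searched on both strands as TGATGNAA, where N is any base. It was found in 5 of the 13 cytosolic windows, 0 of the 14 mitochondrial ones and 4.51% of the 27025 genes of the table. The cytosolic genes that held it were Aars, Gars, Iars, Tars and Yars. The stretches from 150 bases before to 28 after the start are shown, 5′ to 3′ on the gene's strand, with matches in capitals (a match to the other strand appears as its reverse complement).
Aars, chr8:111033692-111033869, plus strand: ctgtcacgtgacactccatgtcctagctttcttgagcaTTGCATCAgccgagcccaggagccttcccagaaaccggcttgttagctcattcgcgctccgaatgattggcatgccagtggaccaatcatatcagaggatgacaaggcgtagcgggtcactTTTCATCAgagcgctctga
Gars, chr6:55037851-55038028, plus strand: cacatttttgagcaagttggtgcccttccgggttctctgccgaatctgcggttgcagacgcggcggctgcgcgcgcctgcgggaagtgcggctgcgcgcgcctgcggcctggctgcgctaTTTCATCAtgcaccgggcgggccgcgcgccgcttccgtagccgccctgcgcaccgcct
Iars, chr13:49681980-49682157, plus strand: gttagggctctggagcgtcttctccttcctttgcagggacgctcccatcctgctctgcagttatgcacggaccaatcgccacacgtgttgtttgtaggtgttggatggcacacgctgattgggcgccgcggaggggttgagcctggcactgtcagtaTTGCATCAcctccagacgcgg
Tars, chr15:11399631-11399808, minus strand: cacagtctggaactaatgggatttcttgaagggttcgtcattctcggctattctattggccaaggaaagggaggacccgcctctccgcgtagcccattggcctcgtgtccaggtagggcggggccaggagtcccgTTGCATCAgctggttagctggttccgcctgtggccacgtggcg
Yars, chr4:129189753-129189930, plus strand: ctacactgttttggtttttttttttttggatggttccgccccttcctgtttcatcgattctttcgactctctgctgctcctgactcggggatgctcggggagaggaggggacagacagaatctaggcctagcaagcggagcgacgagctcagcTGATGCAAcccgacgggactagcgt
For comparison, the same stretches are shown for Farsa and Iars2, the cytosolic and the mitochondrial gene with the largest log2 fold change, which had no match in their windows.
Farsa, chr8:84856836-84857013, plus strand: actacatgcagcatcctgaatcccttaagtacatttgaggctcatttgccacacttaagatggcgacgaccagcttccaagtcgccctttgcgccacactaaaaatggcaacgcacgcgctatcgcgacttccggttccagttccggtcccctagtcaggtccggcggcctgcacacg
Iars2, chr1:185329374-185329551, minus strand: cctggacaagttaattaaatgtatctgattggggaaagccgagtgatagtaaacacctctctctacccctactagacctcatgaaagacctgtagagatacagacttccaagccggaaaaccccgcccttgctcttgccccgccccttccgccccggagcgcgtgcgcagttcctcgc
Counting the first base of the transcript as 1, with no 0, the first base of the match lay at -112 and 10 in Aars, at -30 in Gars, 8 in Iars, -15 in Tars and 4 in Yars. The matches thus lay close to the start in all but the first of the Aars sites. The E box CACGTG, a site of Myc-type factors, was in 4 of 13 cytosolic windows (Aars, Farsb, Iars and Tars), 1 of 14 mitochondrial windows (Ears2) and 8.09% of the table's genes. The gamma-activated site TTCNNNGAA, which STAT factors bind, was in 2 of 13 (Aars and Kars), 1 of 14 (Nars2) and 9.55%. A match describes the letters only, and no binding was measured here.

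Some libraries stood apart. By Xist and Ddx3y, AML replicates 1 and 2 were female and the other 4 mice male, so females occurred only in AML. The headers give MPN replicate 1 a different run from the remaining 5 libraries, and MPN replicate 3 had the lowest median level over all tested genes. Kit was present in every library, at 99.2 to 130 TPM in AML and 145 to 152 TPM in MPN.

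Most synthetase mRNAs had a positive log2 fold change in AML, and fewer passed the test. Of the 20 cytosolic genes, 6 rose, 0 fell and 14 did not pass the test. Of the 16 mitochondrial genes, 4 rose, 0 fell and 12 did not pass. Expressed as shares, 30.0% of the cytosolic and 25% of the mitochondrial genes were called higher, against 20.1% of all tested genes, and none was called lower, against 10.0% of all tested genes (30.1% of all were called in either direction). The test was limma on log2(TPM + 1) over all tested genes, with p-values adjusted by the Benjamini-Hochberg method and a threshold of 0.05. With an unadjusted p under 0.05 there were 11 cytosolic and 7 mitochondrial genes.

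The fold changes were small. The median log2 fold change was 0.36 for the cytosolic genes (range -0.06 to 0.82) and 0.26 for the mitochondrial genes (range -0.0043 to 0.93), beside 0.13 for all tested genes. Relative to that shift of all genes, the medians of both compartments remained above 0, and dividing each library by its median level left medians of 0.28 and 0.17, where that of all genes was 0.05. Of the 36 genes, 34 had a positive log2 fold change as deposited, and 31 did after that scaling. With libraries scaled by median ratio, chosen after seeing the data, 28 did, and the median of all genes was -0.01. Most tested genes were also positive as deposited, since their median was above 0. Every AML mouse lay above every MPN mouse for 15 of 20 cytosolic genes (75.0%) and 9 of 16 mitochondrial genes (56.2%), against 34.8% of all tested genes. These counts are for values as deposited. With each library divided by its median, Nars, Qars and Ears2 overlapped between the groups. No synthetase had all AML mice below all MPN mice, as 16.1% of tested genes did, and 50.9% of tested genes had no overlap in either direction. The spread of the fold changes was wider among mitochondrial genes, with an SD over genes of 0.30 against 0.19, which is a description since the genes of a mouse are not replicates.

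**Figure D1:**
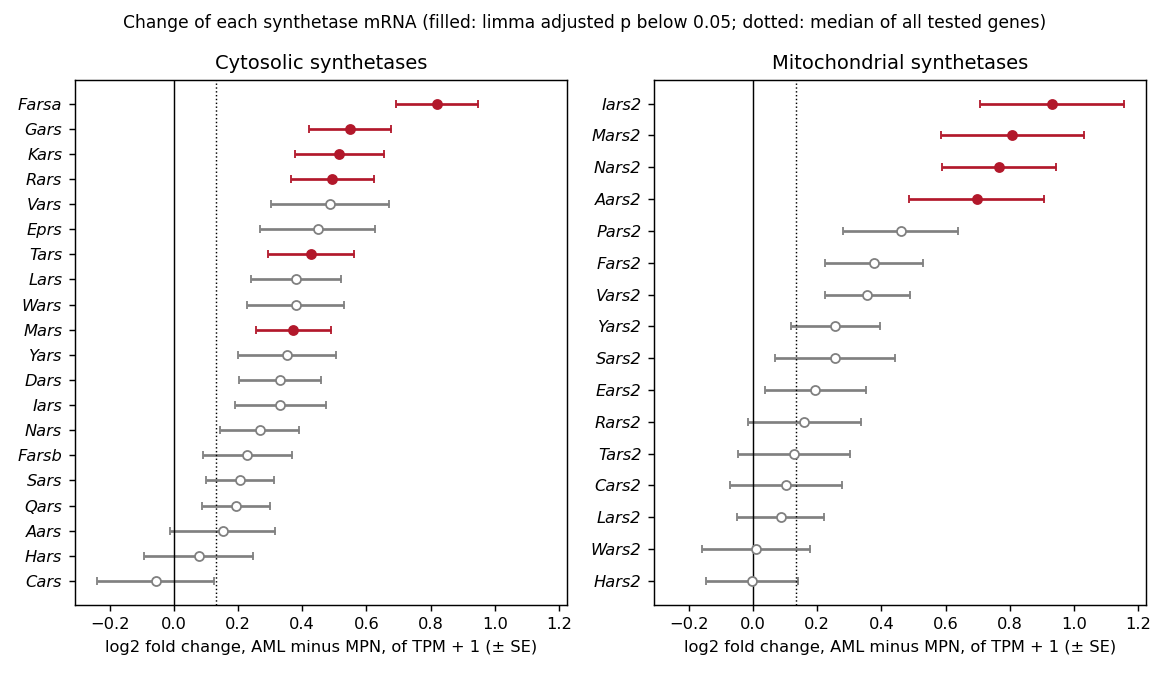
Log2 fold change of TPM + 1 between AML and MPN (x axis, points with standard errors, 3 mice a group) for the 20 cytosolic and 16 mitochondrial synthetase genes; filled points passed the limma threshold and the dotted line is the median of all tested genes, 0.13. The 10 filled points lie between 0.37 and 0.93, and the mitochondrial ones stand apart from the rest of their compartment.

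Farsa, the catalytic subunit of cytosolic phenylalanyl-tRNA synthetase, had the largest change among cytosolic genes. The gene lies on the plus strand at chr8:84856989-84869257 (GRCm38, GENCODE M21). It stood at 147, 129.8 and 126 TPM in AML replicates 1 to 3 and at 82.5, 79.8 and 65.1 TPM in MPN replicates 1 to 3. The level was 1.77 times that of MPN, 134 ± 11.2 against 75.8 ± 9.36 TPM (SD, n = 3 each; log2 fold change 0.82 ± 0.13 SE, adjusted p = 0.00401 by limma). The AML mice were close to each other and far above the MPN mice. Farsb, the other subunit of the same enzyme, did not pass, at 72.2, 75.2 and 62.9 TPM in AML replicates 1 to 3 and at 64.2, 64.9 and 50.6 TPM in MPN replicates 1 to 3 (log2 fold change 0.23 ± 0.14 SE, adjusted p = 0.241 by limma). Its groups overlapped, since AML replicate 3 lay below MPN replicates 1 and 2. The ratio of the 2 mRNAs was not tested.

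Gars, which charges glycine in both cytosol and mitochondria, stood at 159, 131 and 153 TPM in AML replicates 1 to 3 and at 102, 112 and 89.0 TPM in MPN replicates 1 to 3 (log2 fold change 0.55 ± 0.13 SE, adjusted p = 0.0176 by limma). The lysine enzyme gene Kars, likewise serving both compartments, was the most abundant synthetase by the mean of either group, at 224, 190.1 and 179.8 TPM in AML replicates 1 to 3 and at 139, 157 and 119.5 TPM in MPN replicates 1 to 3 (log2 fold change 0.52 ± 0.14 SE, adjusted p = 0.0292 by limma). For both genes every AML mouse was above every MPN mouse, at 1.47 and 1.43 times the MPN mean. Qars, the glutamine enzyme, did not pass, at 126, 112 and 122 TPM in AML replicates 1 to 3 and at 107, 111 and 96.3 TPM in MPN replicates 1 to 3 (log2 fold change 0.19 ± 0.11 SE, adjusted p = 0.198 by limma). AML replicate 2 lay only just above MPN replicate 2.

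Rars, the arginine enzyme gene, rose, at 98.4, 94.9 and 88.0 TPM in AML replicates 1 to 3 and at 66.6, 76.0 and 57.3 TPM in MPN replicates 1 to 3 (log2 fold change 0.49 ± 0.13 SE, adjusted p = 0.0269 by limma). Tars, for threonine, rose, at 79.2, 72.1 and 69.0 TPM in AML replicates 1 to 3 and at 54.8, 62.5 and 46.8 TPM in MPN replicates 1 to 3 (log2 fold change 0.43 ± 0.13 SE, adjusted p = 0.049 by limma). Mars, for methionine, which also starts every protein, rose, at 73.9, 73.5 and 71.6 TPM in AML replicates 1 to 3 and at 59.2, 60.9 and 49.2 TPM in MPN replicates 1 to 3 (log2 fold change 0.37 ± 0.12 SE, adjusted p = 0.0488 by limma). In Mars the AML mice were almost equal, while MPN replicate 3 lay well below the other MPN mice. Tars and Mars only just passed the threshold.

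Other cytosolic genes had groups that did not overlap without passing the test, 9 in number. Vars, the valine enzyme gene, was at 244, 148 and 179 TPM in AML replicates 1 to 3 and at 140.0, 138 and 121 TPM in MPN replicates 1 to 3 (log2 fold change 0.49 ± 0.18 SE, adjusted p = 0.0846 by limma). AML replicate 1 stood far above the other AML mice, and without AML replicate 2 the gene passed (log2 fold change 0.65, limma adjusted p = 0.0357). Lars, for leucine, was at 64.8, 68.3 and 66.8 TPM in AML replicates 1 to 3 and at 54.9, 57.3 and 42.1 TPM in MPN replicates 1 to 3 (limma adjusted p = 0.0763). Dars, for aspartate, was at 119, 125 and 127 TPM in AML replicates 1 to 3 and at 108, 105 and 82.7 TPM in MPN replicates 1 to 3 (limma adjusted p = 0.0877). In both the AML mice were close together and MPN replicate 3 was lowest. Eprs, a fused enzyme for glutamate and proline, had a log2 fold change of 0.45, Yars (tyrosine) 0.35, Iars (isoleucine) 0.33, Nars (asparagine) 0.27 and Sars (serine) 0.21, with adjusted p of 0.096 to 0.177.

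The remaining cytosolic genes overlapped between the groups. Wars, for tryptophan, known in other cells as an interferon-induced gene, had a log2 fold change of 0.38, with MPN replicate 2 above AML replicate 3, and did not pass (adjusted p = 0.0961); without MPN replicate 2 it passed (0.53, adjusted p = 0.0475). Cars, for cysteine, was the least abundant cytosolic gene, at 22.2, 24.3 and 28.4 TPM in AML replicates 1 to 3 and at 27.0, 31.2 and 20.5 TPM in MPN replicates 1 to 3. Neither group stood above the other in Cars (log2 fold change -0.06 ± 0.18 SE, adjusted p = 0.834 by limma). Aars (alanine) and Hars (histidine) had log2 fold changes of 0.15 and 0.08, smaller than their standard errors. Scaling libraries by median ratio, chosen after seeing the data, turned the sign of both (-0.00087 and -0.08), and dividing each library by its median turned that of Hars (-0.0084).

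Among mitochondrial genes, Iars2 (isoleucine) changed most. The gene lies on the minus strand at chr1:185284726-185329396 (GRCm38, GENCODE M21). It stood at 115, 64.5 and 78.4 TPM in AML replicates 1 to 3 and at 48.1, 47.2 and 35.8 TPM in MPN replicates 1 to 3. Its level was 1.97 times that of MPN, 86.0 ± 26.1 against 43.7 ± 6.84 TPM (SD, n = 3 each; log2 fold change 0.93 ± 0.22 SE, adjusted p = 0.02 by limma). AML replicate 1 was far above the other AML mice, which were themselves above all MPN mice. The methionine gene Mars2 was at 25.9, 17.8 and 15.9 TPM in AML replicates 1 to 3 and at 12.3, 11.6 and 8.53 TPM in MPN replicates 1 to 3 (log2 fold change 0.81 ± 0.22 SE, adjusted p = 0.0321 by limma). Nars2, for asparagine, was at 10.5, 8.25 and 8.07 TPM in AML replicates 1 to 3 and at 5.51, 4.87 and 4.12 TPM in MPN replicates 1 to 3 (log2 fold change 0.77 ± 0.18 SE, adjusted p = 0.0174 by limma). Aars2, for alanine, was at 23.6, 15.2 and 14.7 TPM in AML replicates 1 to 3 and at 11.04, 11.3 and 8.97 TPM in MPN replicates 1 to 3 (log2 fold change 0.70 ± 0.21 SE, adjusted p = 0.0435 by limma). In each of these 4 genes AML replicate 1 was the highest of all mice, and levels in AML were 1.71 to 1.97 times those in MPN.

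**Figure D2:**
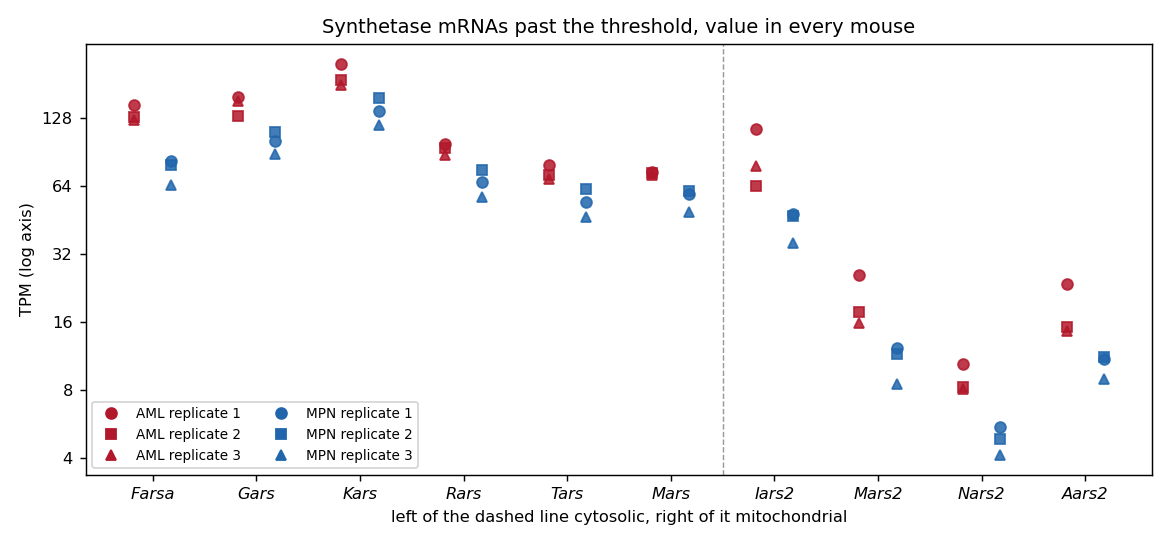
TPM on a log axis (y) in every mouse for the 6 cytosolic and 4 mitochondrial synthetase genes past the threshold (x); red symbols are AML mice, blue symbols MPN mice, and shapes mark the replicate. No AML mouse overlaps an MPN mouse in any of the 10 genes, and AML replicate 1 is the highest in each.

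The other mitochondrial genes did not pass. Vars2 (valine) came close, at 18.7, 19.5 and 19.8 TPM in AML replicates 1 to 3 and at 16.4, 14.2 and 14.1 TPM in MPN replicates 1 to 3 (adjusted p = 0.0807); it passed in the RPKM table (adjusted p = 0.0382). Pars2 (proline) and Fars2 (phenylalanine) had log2 fold changes of 0.46 and 0.38, and Pars2 passed without AML replicate 3 (0.60, adjusted p = 0.047). Yars2 and Ears2, whose groups also did not overlap, had 0.26 and 0.19. The most abundant mitochondrial gene was Lars2, for leucine, at 82.3, 107 and 89.2 TPM in AML replicates 1 to 3 and at 95.8, 79.3 and 86.3 TPM in MPN replicates 1 to 3, and the groups were mixed (log2 fold change 0.09 ± 0.13 SE, adjusted p = 0.649 by limma). The least abundant in the mean of the AML mice was Wars2, for tryptophan (in MPN it was Nars2), at 4.85, 6.12 and 5.09 TPM in AML replicates 1 to 3 and at 5.68, 5.65 and 4.59 TPM in MPN replicates 1 to 3, where the groups were again mixed (log2 fold change 0.01). Cars2, Hars2, Rars2, Sars2 and Tars2 had overlapping groups and log2 fold changes from -0.0043 to 0.26. The sign of Lars2 and Wars2 turned when each library was divided by its median (-0.00071 and -0.06).

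The sum over the 20 cytosolic genes was 2079, 1862 and 1877 TPM in AML replicates 1 to 3 and 1551, 1640 and 1267 TPM in MPN replicates 1 to 3. The sum over the 16 mitochondrial genes was 483, 458 and 427 TPM in AML and 392, 367 and 312 TPM in MPN. In both sums every AML mouse lay above every MPN mouse, by 1.31 times for the cytosolic and 1.28 times for the mitochondrial mean. The cytosolic sum was 4.31, 4.06 and 4.39 times the mitochondrial sum in AML replicates 1 to 3 and 3.96, 4.48 and 4.06 times in MPN replicates 1 to 3. These ratios overlapped between the groups, so the balance of the compartments did not separate AML from MPN. In bulk RNA, fewer cells of a type and less RNA per cell cannot be told apart.

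Individual mice differed across nearly all of the genes. MPN replicate 3 was the lowest of the 6 mice in 20 of 20 cytosolic and 15 of 16 mitochondrial genes, and in 43.5% of all tested genes. The median over cytosolic genes, relative to the MPN mean, was -0.21 on the log2 scale in that mouse and 0.07 and 0.17 in MPN replicates 1 and 2. Its median TPM over all tested genes was also the lowest, 19.95 in place of 22.6 to 23.9 in the other mice. After each library was divided by this median it was lowest in 11 cytosolic and 8 mitochondrial genes. AML replicate 1 was the highest mouse in 13 cytosolic and 8 mitochondrial genes, and in 39.7% of all tested genes. Its mitochondrial genes were spread from -0.10 to 1.39 on this scale, against 0.01 to 0.68 in AML replicate 2 and -0.05 to 0.84 in AML replicate 3.

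**Figure D3:**
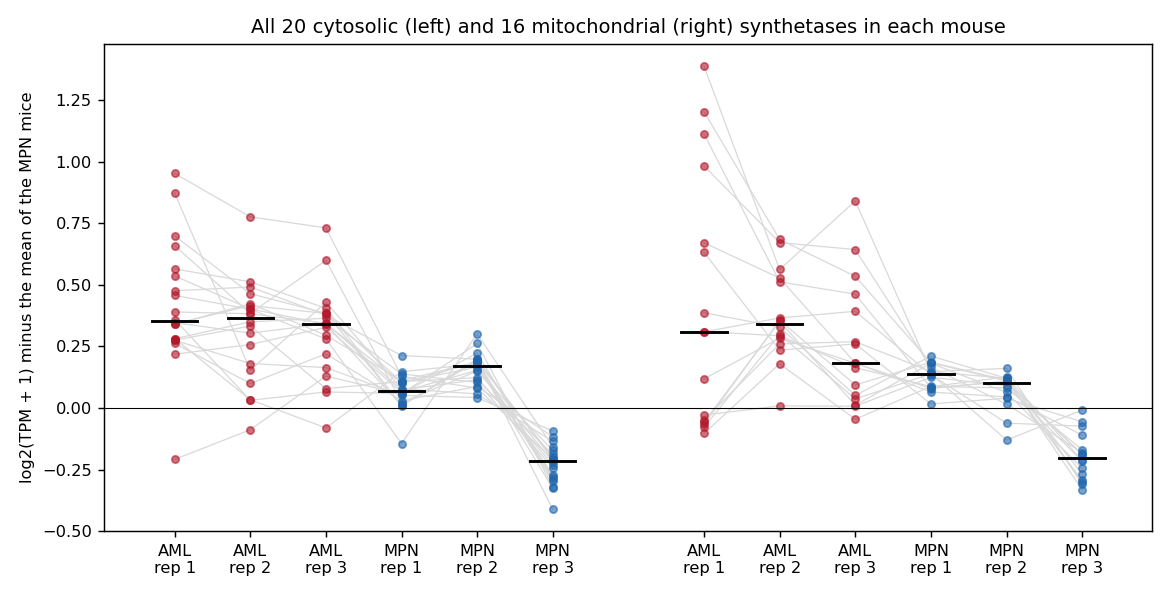
Log2(TPM + 1) of every synthetase gene minus its mean over the MPN mice (y) in each of the 6 mice (x), cytosolic genes at the left and mitochondrial genes at the right; black bars are medians and grey lines join a gene. MPN replicate 3 has medians of -0.21 and -0.20, and AML replicate 1 has the widest spread of mitochondrial genes.

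Fits without 1 mouse, which have fewer samples, made fewer calls in most cases. Without AML replicate 1, 2 or 3, the count of cytosolic genes called higher was 2, 3 and 4 in place of 6, and that of mitochondrial genes 2, 2 and 5 in place of 4. Without MPN replicate 1, 2 or 3 the counts were 1, 5 and 1 cytosolic and 2, 1 and 0 mitochondrial genes. Over all tested genes, calls in either direction numbered 3219 and 2957 without AML replicate 1 or 2, in place of 3678. The range over the 6 fits is given in the closing section. Whether synthetases lost calls more often than other genes was not tested. The fit without MPN replicate 1 is also the fit within the sequencing run that held the other 5 libraries, per the file headers. Only Farsa passed in all 6 of these fits (adjusted p of 0.00714 to 0.0165). Iars2 lost its call without MPN replicate 3 (log2 fold change 0.80, adjusted p = 0.0746), and Nars2 when either MPN replicate 2 (0.77, adjusted p = 0.0688) or MPN replicate 3 (0.68, adjusted p = 0.0531) was left out. Gars lost it when MPN replicate 1 (0.56, adjusted p = 0.0561) or MPN replicate 3 (0.46, adjusted p = 0.0547) was left out. Kars and Rars lost theirs without AML replicate 1 or 2 and without MPN replicate 1 or 3 (log2 fold changes of 0.42 to 0.54 and 0.39 to 0.50, adjusted p of 0.0583 to 0.0829 and 0.0536 to 0.0783). Aars2 and Mars2 lost theirs without any mouse other than AML replicate 3 (log2 fold changes of 0.49 to 0.79 and 0.61 to 0.90, adjusted p of 0.0607 to 0.123 and 0.057 to 0.0956). Tars and Mars lost theirs whichever mouse was left out (log2 fold changes of 0.32 to 0.53 and 0.28 to 0.43, adjusted p of 0.0573 to 0.12 and 0.0799 to 0.107). In all of these fits the 10 genes kept a positive log2 fold change. Leaving out a mouse could not turn that sign, because every AML mouse lay above every MPN mouse in each of them.

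With a term for sex, which compares AML replicate 3 alone with the MPN mice, 0 synthetases passed by limma. The log2 fold changes of the 10 genes were then 0.34 to 0.84, and the smallest adjusted p was 0.0566, for Farsa. Over all genes 1208 passed in that fit, in place of 3678.

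In the RPKM table, a deposited set of values from another pipeline on the same libraries, the same 10 genes passed, and Dars, Lars and Vars2 passed as well (limma adjusted p = 0.044, 0.0366 and 0.0382). There, 20.5% of tested genes were called higher and 10.8% lower (31.3% in all). The sign of the log2 fold change was the same in 35 of 36 genes, all but Hars2, which was near 0 in both tables.

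Cytosolic genes were also viewed by the class and assembly of their products, to be read against the 20.1% of all tested genes called higher and the 34.8% with every AML mouse above every MPN mouse. Of the 10 class I genes, 2 rose (Mars and Rars) with a median log2 fold change of 0.38, and of the 10 genes counted as class II, 4 rose (Farsa, Gars, Kars and Tars) with a median of 0.30. The fused Eprs was counted as class I. All 8 genes of the multisynthetase complex (Dars, Eprs, Iars, Kars, Lars, Mars, Qars and Rars) had every AML mouse above every MPN mouse, and 3 of them rose (Kars, Mars and Rars). Of the 12 genes outside the complex, 7 had no overlap and 3 rose (Farsa, Gars and Tars). With each library divided by its median, Qars of the complex and Nars outside it overlapped. The medians were 0.38 and 0.31, and the summed TPM in AML was 1.31 times that in MPN for both. The difference between these groups of genes was not tested.

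Of the 5 genes with an amino acid response element in the window, Gars and Tars rose, while Yars, Iars and Aars did not pass (log2 fold changes of 0.55, 0.43, 0.35, 0.33 and 0.15). Of all tested genes, 20.1% rose. Farsa, with the largest cytosolic change, had a window without a match, as did Kars and Mars, which also rose. Dars, Eprs, Farsb, Qars and Sars had windows without a match and did not pass. Rars, which rose too, had no window. The 4 called mitochondrial genes had no match either, but no mitochondrial window held one, so this says nothing about the called genes. A link between the element and the changes was not tested.

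Pairs of genes that charge the same amino acid in the separate compartments were set side by side, with Farsa for Fars2 and the fused Eprs for both Ears2 and Pars2. In 13 of the 16 pairs the mitochondrial gene was below its partner in all 6 mice. In Lars2 it was above in all 6, at 1.27 to 1.57 times Lars in AML and 1.38 to 2.05 times in MPN. The ratio of the mitochondrial to the cytosolic mRNA was higher in every AML mouse than in any MPN mouse for 4 pairs, lower for 3, and overlapping for 9. Iars2 was at 1.403, 0.81 and 0.959 times Iars in AML replicates 1 to 3 and at 0.697, 0.644 and 0.682 times in MPN replicates 1 to 3. Aars2 was at 0.252 to 0.329 times Aars in AML and 0.173 to 0.197 times in MPN. Mars2 and Nars2 were likewise at higher ratios in AML, 0.223 to 0.351 against 0.174 to 0.207 and 0.0547 to 0.0767 against 0.0373 to 0.0449. The ratio was lower in AML for Fars2 with Farsa (0.152 to 0.179 against 0.204 to 0.245), Rars2 with Rars (0.241 to 0.339 against 0.343 to 0.41) and Ears2 with Eprs (0.102 to 0.115 against 0.119 to 0.15). The pairs thus moved in both directions, and 7 of 16 mitochondrial genes had a log2 fold change above that of the partner.

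**Figure D4:**
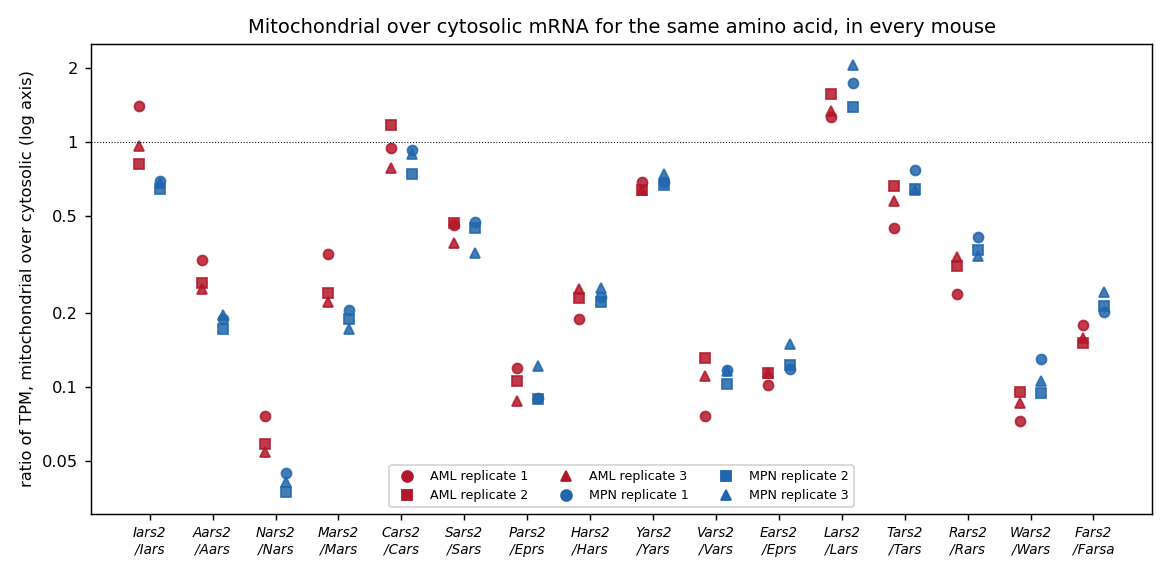
Ratio of mitochondrial to cytosolic TPM for the same amino acid (y, log axis) in every mouse for 16 pairs (x), ordered by the difference of their log2 fold changes; red symbols are AML and blue symbols MPN mice. The pairs at the left (Iars2, Aars2, Nars2 and Mars2) have all AML mice above all MPN mice, and Fars2 at the right has them below.

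Genes that work beside the synthetases were read from lists. Of the 3 scaffold genes of the multisynthetase complex, 2 rose, where 20.1% of all tested genes did, and with the term for sex 0 did. Aimp2 stood at 78.8, 63.9 and 64.1 TPM in AML replicates 1 to 3 and at 46.4, 48.6 and 37.7 TPM in MPN replicates 1 to 3 (log2 fold change 0.63 ± 0.14 SE, adjusted p = 0.0167 by limma), and every AML mouse was above every MPN mouse. Its call ended with the term for sex (adjusted p = 0.183). Aimp1 was at 121, 104 and 105 TPM in AML replicates 1 to 3 and at 82.1, 91.2 and 86.3 TPM in MPN replicates 1 to 3 (log2 fold change 0.34 ± 0.11 SE, adjusted p = 0.0493 by limma), a call that ended whichever mouse was left out and with median scaling. Eef1e1 did not pass (log2 fold change 0.28, adjusted p = 0.181), and its groups overlapped.

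Of 13 tested genes for other steps of charging and editing, 3 rose, 0 fell and 10 did not pass, with a median log2 fold change of 0.23. That share is near the 20.1% of all tested genes called higher, and with the term for sex 0 rose. Pstk, the kinase that prepares serine on the selenocysteine transfer RNA, was at 21.5, 15.1 and 18.9 TPM in AML replicates 1 to 3 and at 9.37, 9.65 and 7.37 TPM in MPN replicates 1 to 3 (log2 fold change 0.99 ± 0.18 SE, adjusted p = 0.00788 by limma). Dtd1, which removes D-amino acids from transfer RNA, was at 41.7, 35.7 and 31.9 TPM in AML replicates 1 to 3 and at 21.0, 23.0 and 19.1 TPM in MPN replicates 1 to 3 (log2 fold change 0.76 ± 0.15 SE, adjusted p = 0.00879 by limma). For both, every AML mouse was well above the MPN mice, and both calls ended with the term for sex (adjusted p = 0.0675 for Pstk and 0.135 for Dtd1). Ptrh2, a peptidyl-tRNA hydrolase, was 22.8 ± 4.84 against 14.0 ± 1.597 TPM (log2 fold change 0.65 ± 0.18 SE, adjusted p = 0.0353 by limma), and its call ended without AML replicate 1 or 2 and without MPN replicate 1, 2 or 3. Sepsecs, the enzyme that acts after Pstk, did not pass (log2 fold change -0.27, groups overlapping). Qrsl1, which converts glutamate to glutamine on mitochondrial transfer RNA, did not pass (0.36).

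Elongation factors, which carry charged transfer RNA to the ribosome and move it along, did not pass. The cytosolic Eef1a1, Eef1b2, Eef1d, Eef1g and Eef2 had log2 fold changes of 0.24, 0.08, 0.08, 0.38 and 0.27, so 0 of 5 rose or fell by limma (1 had an unadjusted p under 0.05). Of the mitochondrial Tufm, Tsfm, Gfm1 and Gfm2, with 0.09, 0.44, 0.40 and -0.48, 0 of 4 passed (3 had an unadjusted p under 0.05). At least 30.1% of all tested genes had an unadjusted p under 0.05, since that share passed after adjustment. With median scaling Tsfm passed upward and Gfm2 downward.

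Of 23 tested genes that respond to ATF4, including Atf4 itself, 13 rose, 3 fell and 7 did not pass (median log2 fold change 0.54), where 20.1% of all tested genes rose and 10.0% fell. With median scaling 10 rose and 3 fell, where 18.1% of all tested genes were called higher and 12.3% lower (30.4% in all). The counts depended on the mice, with 7, 5 and 5 genes rising without MPN replicate 1, 2 or 3 and 2 rising and 0 falling with the term for sex. Phgdh, the first enzyme of serine synthesis, rose, at 445, 334 and 326 TPM in AML replicates 1 to 3 and at 86.7, 83.3 and 76.2 TPM in MPN replicates 1 to 3 (log2 fold change 2.14 ± 0.14 SE, adjusted p = 0.00019 by limma). Psat1, the next enzyme, was at 113 ± 14.7 against 51.0 ± 6.79 TPM (SD, n = 3 each; log2 fold change 1.13 ± 0.14 SE, adjusted p = 0.00175 by limma). In both genes every AML mouse lay above every MPN mouse. Slc7a5, an importer of large neutral amino acids, rose from 46.2 ± 3.70 to 101.1 ± 23.4 TPM (adjusted p = 0.004). Herpud1, a gene of protein quality control at the endoplasmic reticulum, fell from 226 ± 37.2 to 122 ± 9.43 TPM (adjusted p = 0.00438). Mthfd2 and Ddit3 were the others that fell (log2 fold changes of -0.65 and -0.49). Asns, the asparagine synthetase gene, did not pass, at 41.8, 22.9 and 12.97 TPM in AML replicates 1 to 3 and at 51.1, 49.9 and 27.9 TPM in MPN replicates 1 to 3, with overlapping groups. Members of the list thus went in both directions.

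The kinases that lead to ATF4 by acting on eIF2alpha did not rise, and 1 of 4 fell, where 10.0% of all tested genes did. In 3 of the 4 every AML mouse lay below every MPN mouse, as in 16.1% of all tested genes. With median scaling 2 fell, and with median-ratio scaling, chosen after seeing the data, 3 fell. Eif2ak2, which double-stranded RNA activates, stood at 24.8, 23.6 and 19.8 TPM in AML replicates 1 to 3 and at 44.5, 56.5 and 33.9 TPM in MPN replicates 1 to 3 (log2 fold change -0.93 ± 0.20 SE, adjusted p = 0.013 by limma), with every AML mouse below every MPN mouse. Its call ended with the term for sex (adjusted p = 0.0524). Eif2ak4, the kinase that uncharged transfer RNA activates, did not pass, at 24.1, 24.0 and 27.0 TPM in AML replicates 1 to 3 and at 25.9, 23.2 and 18.8 TPM in MPN replicates 1 to 3 (log2 fold change 0.15 ± 0.15 SE, adjusted p = 0.475 by limma), and its groups overlapped. Eif2ak1 and Eif2ak3 had log2 fold changes of -0.26 and -0.28 and did not pass (Eif2ak1 did with median scaling).

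**Figure D5:**
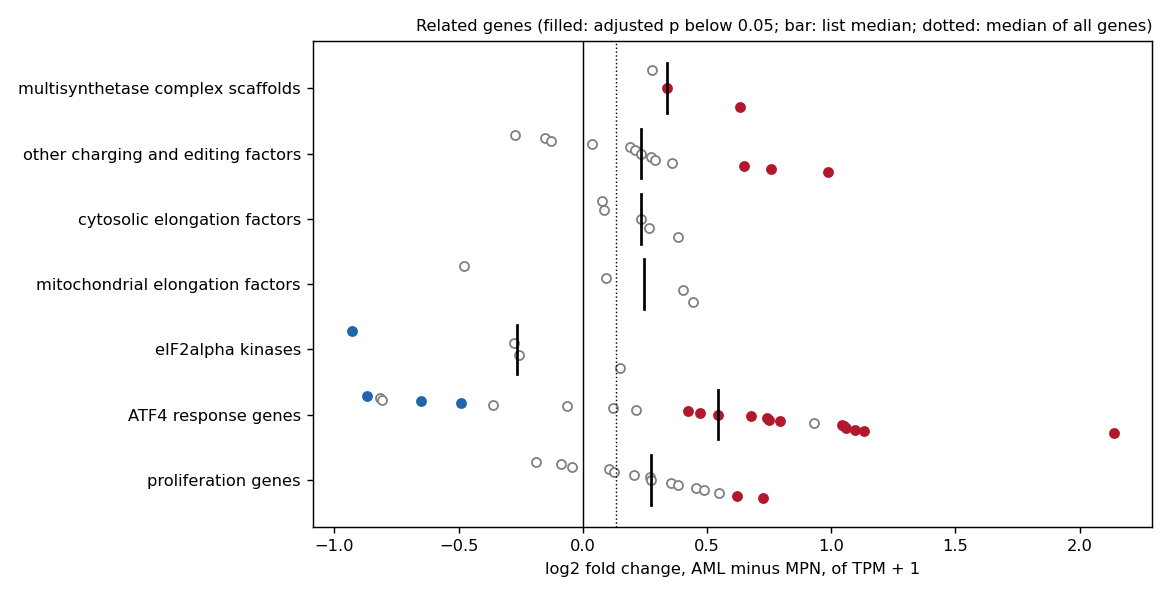
Log2 fold change of TPM + 1 between AML and MPN (x) for the tested genes of 7 lists of related genes (y); filled red points rose, filled blue points fell, open points did not pass, black bars are list medians and the dotted line is the median of all tested genes, 0.13. The genes that respond to ATF4 reach 2.14 upward and -0.87 downward.

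Marker mRNAs of other cell types differed between the groups. While Kit itself did not pass, every AML mouse lay below every MPN mouse in it. Of 8 tested stem and progenitor markers 7 rose, where 20.1% of all tested genes did. That count was 6 without AML replicate 2, AML replicate 3 or MPN replicate 1, and 5 without MPN replicate 2 or 3. With the term for sex the median log2 fold change of these markers was 2.05, in place of 2.51. Of the markers tested, 7 of 8 for macrophages, 4 of 5 for B cells, 8 of 9 for T and NK cells (Nkg7 rose), 3 of 8 for dendritic cells, 7 of 8 for neutrophils and 1 of 8 for erythroid cells fell, where 10.0% of all tested genes did. Some of these counts moved with the mice or the settings, and not every change is listed here. Macrophage markers that fell were 6 without AML replicate 1 and 5 without MPN replicate 1. Their median log2 fold change was -2.35 with the term for sex, in place of -1.77. Neutrophil markers that fell were 2 without MPN replicate 1, without MPN replicate 3 or with the term for sex, and macrophage markers 4 without MPN replicate 3. Dendritic cell markers were 5 without AML replicate 3. Erythroid markers were 4 without AML replicate 1, 2 without AML replicate 3, 6 with the term for sex and 0 without any of the other 4 mice. T and NK cell markers were 5 with the term for sex. The summed neutrophil markers were 6782 to 20530 TPM in AML and 30324 to 48098 TPM in MPN, and the summed macrophage markers 77.6 to 187 and 377 to 510 TPM. C1qa was at 0 in AML replicates 2 and 3, and none of the lists had a marker at 0 in all AML mice. Of 15 proliferation genes 2 rose (Mcm3 and Mcm6), 0 fell and 13 did not pass (median 0.27), a share below the 20.1% of all tested genes. The count was 0 with the term for sex, 4 without AML replicate 3, and 1 without AML replicate 2, MPN replicate 1 or MPN replicate 3. Mki67 was at 123 to 180 TPM in AML and 99.3 to 185 TPM in MPN. Their part in the synthetase results was not tested.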

How the data were processed

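RNA of c-Kit+ splenocytes was sequenced from 3 AML and 3 MPN mice, 1 library a mouse. The authors deposited a table of TPM values, made with RSEM per the file headers, and a table of RPKM values; RPKM was used as a check. TopHat2, RSEM, Bowtie2, mm9 and mm10 are named in the submitters' processing notes without versions or roles, and the sources used here do not tie a build to a table. Among the TPM symbols, 27 had been turned into dates, and 25213 of 25991 RPKM identifiers matched a symbol.

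The 12223 genes that reached 1 TPM in 3 or more libraries were fitted on log2(TPM + 1) with limma 3.58.1 (R 4.3.3, trend in the variance), AML against MPN without covariates, and p-values were adjusted by Benjamini-Hochberg over all of them; the threshold was 0.05. A fold change on this scale understates that of low genes. TPM keeps no depth. The steps between low RPKM values gave relative depths of 0.749 to 1.31, with values within 0.05 of a whole read counted as whole. Replicate numbers were given in accession order and pair no mice, and p-values measure the spread between these mice. MPN replicate 1 came from another sequencing run than the other 5 libraries, per the file headers.

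The members and lists were chosen with earlier results of these data known. Per-mouse values are given for the called genes with the largest changes (up to 8 cytosolic and 5 mitochondrial), up to 4 uncalled genes without overlap, Kars, Gars and Qars, and the most and least abundant gene of each compartment; related genes are given by smallest p, or all in lists of up to 5. Tested on simulated data for the same comparison over 12223 genes, the fit called 60.0% of 100 genes changed 2-fold, 90.0% of 100 changed 4-fold and 5 of 12023 unchanged genes. The largest synthetase change, in Iars2, was 1.97 times, below the changes simulated. The simulation also held no shift of all genes. Its rates therefore do not carry over to the synthetases. Alternatives changed the pseudocount, filter, scaling, table, variance model and mice.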

Additional observations from a re-analysis of the deposited data

How the results depend on the processing

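None of the 10 called synthetases changed direction in any of the 17 alternatives, and no synthetase was called lower in any. In each of the 10, every AML mouse lay above every MPN mouse. Only the rescaled values and the RPKM table could therefore have turned a sign, and the other alternatives could not. With a term for sex, 0 cytosolic and 0 mitochondrial genes passed by limma and 1208 genes passed in all; with no filter on low values 2 mitochondrial genes passed. Leaving out 1 mouse gave 1 to 5 cytosolic and 0 to 5 mitochondrial genes called higher, and 2009 to 3705 genes in all. The cause was not tested, though each such fit has fewer samples. The sign turned in 8 uncalled genes. With median scaling the log2 fold change was -0.0084 for Hars, -0.00071 for Lars2 and -0.0625 for Wars2. With quantile normalization it was -0.0091 for Hars and -0.0944 for Wars2, and RPKM values gave 0.0085 for Hars2. Array weights gave -0.11 for Aars and -0.13 for Hars. The term for sex gave 0.13 for Cars, -0.0807 for Hars, 0.0072 for Hars2 and -0.0456 for Wars2. Median-ratio scaling, added after seeing the data, gave -0.00087 for Aars, -0.0755 for Hars, -0.0465 for Cars2, -0.0679 for Lars2, -0.0233 for Tars2 and -0.12 for Wars2. Leaving out 1 mouse gave ranges of -0.0852 to 0.168 for Hars, -0.0204 to 0.168 for Lars2, -0.0746 to 0.0671 for Wars2, -0.112 to 0.058 for Hars2, -0.216 to 0.0752 for Cars, -0.0228 to 0.193 for Cars2 and -0.0217 to 0.225 for Tars2. No paired analysis was possible because each library came from a separate mouse of 1 group and the labels pair no mice. The depth of the libraries is known only relative to each other, and 3 mice a group limit the precision.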
